A study of Mus musculus with 23 samples.

Results

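The 31 genes described here cover how a mouse cell makes, senses, moves and exports cholesterol. They were listed by name, with earlier results of these data known, and are 31 of the 53379 genes in the deposited count table. All 31 passed the filter on low counts, which left 16882 genes. By role they comprise 7 enzymes from acetyl-CoA to farnesyl diphosphate, 3 from farnesyl diphosphate to lanosterol, 8 from lanosterol to cholesterol, 5 genes of the SREBP control system, 4 of intracellular transport and storage, and 4 of the LXR and efflux arm. The first 3 roles are called the 18 synthesis enzymes below.

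RNA was sequenced from splenic T cells of the C57BL/6 mouse strain, sorted as positive for CD45, CD3 and CD4 and negative for CD8, then kept in culture for 72 h. Cells of every group had IL-2 (30 IU/ml). Stimulated cells also received antibodies against CD3 and CD28, which engage the T cell receptor and its costimulatory receptor. Unstimulated cells had IL-2 alone. Either state was set up with 5 mM niacin or without it. Mice were labelled Gpr109a-/- (KO-labelled) or wild type (WT-labelled); Gpr109a is an earlier name of Hcar2, the gene of the niacin receptor. The 8 groups were stimulated KO-labelled and WT-labelled cells with niacin, the same 2 without niacin, and the 4 matching unstimulated groups. Each held 3 libraries, except for 2 of unstimulated KO-labelled cells with niacin. No label states the extent of the deletion, the age of the mice or whether the libraries came from separate animals, so a p-value here speaks of the variation among libraries only, which may be technical.

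As background, cholesterol synthesis is governed by feedback. When sterols are scarce, SCAP escorts the SREBP proteins from the endoplasmic reticulum to the Golgi, where proteases release a fragment that enters the nucleus and activates the genes of the synthesis enzymes. When sterols are plentiful, the INSIG proteins hold SCAP in the endoplasmic reticulum, and oxysterols activate the LXR receptors, which switch on genes for export and for removal of lipoprotein receptors. Activated T cells are known to raise sterol synthesis for new membrane as they grow and divide.

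Total counts ran from 13205565 to 30090018 per library (median 24007159). Summed CD4 T cell markers lay between 3056 and 5052 CPM (counts scaled to a common library size with TMM factors) in every library, and summed myeloid and dendritic cell markers between 0.930 and 12.1 CPM. Summed B cell markers reached 8.62 CPM, CD8 T cell markers 29.2 CPM, and erythroid and platelet markers 6.02 CPM. The 4 NK cell markers summed to between 72.5 and 109 CPM in stimulated libraries and between 10.9 and 40.6 CPM in unstimulated ones. Of these, Eomes, which T cells can express too, reached 108 CPM, while Klrb1c, Klrk1 and Ncr1 (at 0 in 11 libraries) stayed at or below 13.6 CPM; their part in the stimulation results was not tested. Hcar2 went against its labels, with counts in 10 of 11 KO-labelled libraries and 1 count in all 12 WT-labelled ones, so every direction by genotype is that of the labels. Of the libraries, 4 stood apart. Library 3 of the unstimulated KO-labelled cells had the lowest total (the next was 20604050) and the lowest TMM factor, 0.885, and its column lacked a name tag that the 22 others carry. Libraries 1 and 2 of the stimulated WT-labelled cells with niacin had 0.187% and 0.217% of counts on mitochondrial genes, against 0.605% in library 3. Library 1 of the unstimulated WT-labelled cells had 0.346%, against 0.937% and 0.802% in its group. Where a called value below turned on one of them, the value without it is given.

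RefSeq promoters (GRCm38.p6, 250 bases before to 50 after the start) were at hand for 25 of the 31 genes. The set was searched on both strands for TCACNCCAC (a sterol element, the site type bound by SREBP), CCAAT (bound by NF-Y, a partner of SREBP), CACGTG (an E-box) and GGGCGG (bound by Sp1). The sterol element letters occurred in 1 of the 25 genes, Hmgcs1, and in 1.24% of all 32851 promoters. CCAAT occurred in 21 of the 25, 14 of 15 synthesis enzymes and 7 of 10 other members, against 37.41% of all promoters. GGGCGG occurred in 23 of 25 (35.66% of all promoters) and CACGTG in 6 of 25 (7.15%). A member gene was counted if any of its promoters matched, and the 25 genes had 33 promoters. The shares of all promoters are per single promoter, so the member counts are favoured beside them. A match describes these letters only, and no match says nothing about binding. The Hmgcs1 promoter is shown as the only one with the sterol element, Lss as a strongly induced enzyme without it, and Mylip as the gene with the most negative mean log2 fold change over the 4 stimulation comparisons (-2.03, close to -1.97 for Abca1); Lss and Mylip were added after the matches were seen. Capitals mark the sterol element and each CCAAT box, which reads ATTGG on the other strand.
Hmgcs1 (chr13:119690101-119690400, plus strand): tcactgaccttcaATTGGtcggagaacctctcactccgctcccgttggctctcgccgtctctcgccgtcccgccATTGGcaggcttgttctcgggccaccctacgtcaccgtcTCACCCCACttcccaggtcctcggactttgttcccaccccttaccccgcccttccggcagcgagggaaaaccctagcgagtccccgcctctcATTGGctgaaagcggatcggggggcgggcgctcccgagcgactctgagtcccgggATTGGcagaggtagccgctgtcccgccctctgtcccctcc
Lss (chr10:76531355-76531654, plus strand): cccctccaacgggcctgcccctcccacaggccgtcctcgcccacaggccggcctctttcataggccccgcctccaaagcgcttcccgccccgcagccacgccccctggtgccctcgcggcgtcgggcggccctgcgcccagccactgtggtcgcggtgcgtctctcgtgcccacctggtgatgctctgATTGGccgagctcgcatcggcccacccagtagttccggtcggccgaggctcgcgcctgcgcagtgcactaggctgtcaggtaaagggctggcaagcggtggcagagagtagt
Mylip (chr13:45389492-45389791, plus strand): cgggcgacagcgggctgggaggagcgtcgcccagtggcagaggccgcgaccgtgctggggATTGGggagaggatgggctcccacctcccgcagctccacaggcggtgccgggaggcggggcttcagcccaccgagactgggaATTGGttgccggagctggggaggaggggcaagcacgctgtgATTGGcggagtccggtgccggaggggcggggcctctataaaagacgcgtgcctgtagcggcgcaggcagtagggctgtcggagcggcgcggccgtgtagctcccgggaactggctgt
Hmgcs1 holds 4 CCAAT boxes around 1 sterol element. Mylip, whose transcript fell on stimulation, holds 3 CCAAT boxes, and Lss, whose transcript rose about as far as that of Hmgcs1, holds 1.

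The stimulation comparisons ask what activation through CD3 and CD28 did to these genes beside IL-2 alone. All 18 synthesis enzymes rose, in both genotype labels and with or without niacin, and the libraries of the 2 states did not overlap for any of them. Their median log2 fold change was 2.62 in KO-labelled and 2.55 in WT-labelled cells without niacin, and 2.58 and 2.66 with niacin, while the median over all genes tested lay at -0.13, -0.07, -0.07 and -0.10. The INSIG and SREBP genes, Stard4 and Npc2 rose as well, and Abca1 and Mylip fell. Fewer cells of a type and less RNA per cell cannot be told apart in such bulk samples.

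By edgeR's quasi-likelihood F test with Benjamini-Hochberg adjustment over all 16882 genes (threshold 0.05), 25 members rose and 3 fell in KO-labelled cells without niacin. There, 25.2% of all genes rose and 27.5% fell. In WT-labelled cells without niacin 26 rose and 2 fell, where 23.4% of all genes rose and 21.7% fell. With niacin, 25 rose and 2 fell in KO-labelled cells (24.5% and 25.3% of all genes), and 26 rose and 2 fell in WT-labelled cells (26.0% and 26.6%). In all 4 comparisons 24 members rose and 2 fell, against 16.1% and 13.3% of all genes. The 5 others were Scap, Npc1, Soat1, Abcg1 and Nr1h2. The groups did not overlap for 25, 29, 29 and 28 of the 31 members, in the order KO-labelled and WT-labelled without niacin, then with it, where this held for 54.8%, 60.9%, 74.8% and 63.0% of all genes. In either direction 28, 28, 27 and 28 members were called in that order, where 52.7%, 45.1%, 49.8% and 52.6% of all genes were. Without the 4 libraries that stood apart, a setting chosen after seeing the data, it was 27, 28, 28 and 28.

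**Figure D1:**
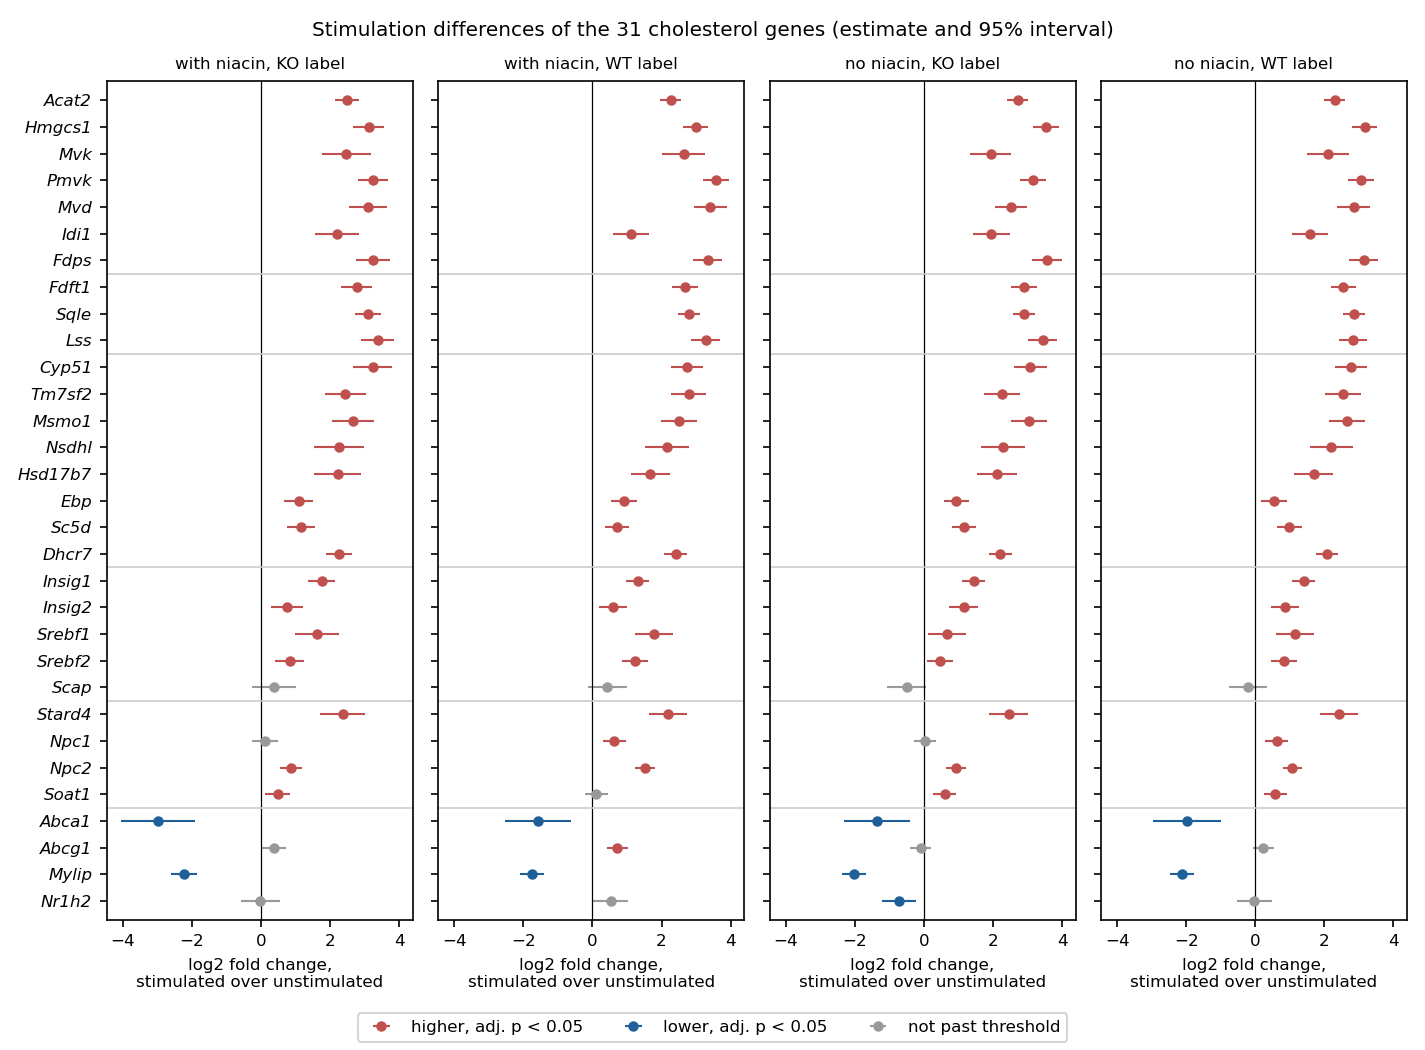
Log2 fold change of each of the 31 genes, stimulated over unstimulated, with its 95% interval, in the 4 comparisons (panels); grey lines separate the 6 roles. The 18 synthesis enzymes at the top lie right of 0 in every panel, and Abca1 and Mylip near the bottom lie left of 0.

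Ranked by the mean of the 4 log2 fold changes, Fdps led with 3.32, followed by Pmvk (3.26), Lss (3.23), Hmgcs1 (3.20), Mvd (2.97), Cyp51 (2.96) and Sqle (2.92). The smallest rises among the enzymes were those of Sc5d (1.00) and Ebp (0.87), which act late in the pathway. Between these, Fdft1, Msmo1, Tm7sf2, Acat2, Mvk, Dhcr7, Nsdhl, Hsd17b7 and Idi1 ran from 2.73 to 1.72. The 4 comparisons share no libraries, but all 23 libraries share 1 fit and 1 estimate of the spread.

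Among the mevalonate and isoprenoid steps, all 7 genes rose in each comparison. Their summed level per kilobase of exon (RPKM, computed here from the CPM) averaged 402 ± 9.94 in stimulated KO-labelled cells and 55.8 ± 4.07 in unstimulated ones (SD, n = 3 each). In WT-labelled cells it averaged 417 ± 15.8 stimulated and 61.1 ± 9.14 unstimulated. With niacin it averaged 392 ± 12.4 stimulated and 51.8 ± 3.75 unstimulated (n = 2) in KO-labelled cells, and 447 ± 25.8 and 56.3 ± 10.8 in WT-labelled cells.

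Hmgcs1 (chromosome 13, 119690379 to 119708260, plus strand) encodes the cytosolic HMG-CoA synthase, which joins acetoacetyl-CoA and acetyl-CoA. Without niacin, Hmgcs1 stood at 479.8, 435 and 448 CPM in stimulated KO-labelled libraries, against 44.1, 46.2 and 27.2 CPM unstimulated, and at 460, 547 and 468 CPM in stimulated WT-labelled libraries, against 55, 57.5 and 51.7 CPM unstimulated. With niacin, Hmgcs1 stood at 392, 440.2 and 352 CPM in stimulated KO-labelled libraries, against 48 and 43.4 CPM unstimulated, and at 392, 389 and 466 CPM in stimulated WT-labelled libraries, against 63.3, 48.3 and 46 CPM unstimulated. Every stimulated library stood above every unstimulated one, and library 3 of the unstimulated KO-labelled cells was the lowest of all. Its log2 fold changes (± SE, edgeR, as for all such values below) ran from 2.98 ± 0.18 (WT-labelled cells with niacin) to 3.53 ± 0.18 (KO-labelled cells without niacin), with adjusted p no higher than 8.1e-10 in any of the 4 comparisons.

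Pmvk (chromosome 3, 89454541 to 89469013, plus strand) encodes phosphomevalonate kinase. Without niacin, Pmvk stood at 94.8, 89.4 and 86.7 CPM in stimulated KO-labelled libraries, against 12.4, 8.14 and 9.84 CPM unstimulated, and at 83.6, 80.6 and 95.9 CPM in stimulated WT-labelled libraries, against 12.3, 8.27 and 10.4 CPM unstimulated. With niacin, Pmvk stood at 94.9, 90.5 and 87.2 CPM in stimulated KO-labelled libraries, against 9 and 10.2 CPM unstimulated, and at 120.1, 118 and 90.7 CPM in stimulated WT-labelled libraries, against 10.2, 9.34 and 8.13 CPM unstimulated. No unstimulated library came near a stimulated one. Pmvk had log2 fold changes from 3.07 ± 0.18 (WT-labelled cells without niacin) to 3.57 ± 0.18 (WT-labelled cells with niacin), with adjusted p no higher than 6.03e-10 in any of the 4 comparisons. Mvd (chromosome 8, 122433601 to 122443422, minus strand) encodes the decarboxylase that forms isopentenyl diphosphate. Without niacin, Mvd stood at 198, 205 and 198 CPM in stimulated KO-labelled libraries, against 30.9, 27.6 and 45.7 CPM unstimulated, and at 212, 213 and 209 CPM in stimulated WT-labelled libraries, against 37.8, 23.2 and 26.9 CPM unstimulated. With niacin, Mvd stood at 209.9, 192 and 205 CPM in stimulated KO-labelled libraries, against 19.9 and 27.4 CPM unstimulated, and at 284, 295 and 227 CPM in stimulated WT-labelled libraries, against 34.1, 19.4 and 22.1 CPM unstimulated. Libraries 1 and 2 of the stimulated WT-labelled cells with niacin were the highest, and library 3 of the unstimulated KO-labelled cells the highest unstimulated one. Mvd had log2 fold changes from 2.53 ± 0.22 (KO-labelled cells without niacin) to 3.42 ± 0.23 (WT-labelled cells with niacin), with adjusted p no higher than 2.21e-08 in any of the 4 comparisons.

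Idi1 (chromosome 13, 8885501 to 8892451, plus strand) encodes the isomerase that converts isopentenyl diphosphate to dimethylallyl diphosphate. Without niacin, Idi1 stood at 20.5, 22.6 and 17.6 CPM in stimulated KO-labelled libraries, against 6.93, 4.48 and 4.02 CPM unstimulated, and at 16.1, 20.1 and 24.3 CPM in stimulated WT-labelled libraries, against 6.71, 6.66 and 6.69 CPM unstimulated. With niacin, Idi1 stood at 23.6, 25.7 and 17.5 CPM in stimulated KO-labelled libraries, against 4.39 and 5.33 CPM unstimulated, and at 10.9, 12.6 and 18.1 CPM in stimulated WT-labelled libraries, against 8.33, 5.76 and 5.02 CPM unstimulated. The stimulated libraries were again above all unstimulated ones, by the smallest margin in WT-labelled cells with niacin, where libraries 1 and 2 were the 2 lowest. Idi1 had log2 fold changes from 1.12 ± 0.25 (WT-labelled cells with niacin) to 2.19 ± 0.30 (KO-labelled cells with niacin), with adjusted p no higher than 0.000939 in any of the 4 comparisons. Idi1 and its near copies share sequence (Gm13502 matches 684 bases at 100% identity), so its counts are uncertain.

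Fdps (chromosome 3, 89093588 to 89101959, minus strand) encodes farnesyl diphosphate synthase, whose product is the branch point towards sterols, prenyl groups and ubiquinone. Without niacin, Fdps stood at 166, 153 and 149 CPM in stimulated KO-labelled libraries, against 15.7, 12.9 and 10.8 CPM unstimulated, and at 172, 167 and 166 CPM in stimulated WT-labelled libraries, against 24.6, 15.7 and 16.6 CPM unstimulated. With niacin, Fdps stood at 152, 152 and 135 CPM in stimulated KO-labelled libraries, against 16.3 and 14.6 CPM unstimulated, and at 172, 189 and 167 CPM in stimulated WT-labelled libraries, against 23.4, 15.8 and 13.1 CPM unstimulated. The states were far apart and the stimulated groups close to each other. Fdps had log2 fold changes from 3.15 ± 0.20 (WT-labelled cells without niacin) to 3.56 ± 0.21 (KO-labelled cells without niacin), with adjusted p no higher than 2.83e-09 in any of the 4 comparisons. Processed copies of Fdps are in the annotation (Gm3571 is 98.87% identical over 1062 bases), which makes the division of its reads uncertain. The remaining members of this role rose too: Acat2, the cytosolic acetoacetyl-CoA thiolase, had log2 fold changes from 2.27 ± 0.15 (WT-labelled cells with niacin) to 2.72 ± 0.15 (KO-labelled cells without niacin), with adjusted p no higher than 1.07e-09 in any of the 4 comparisons. Mvk, mevalonate kinase, ran from 1.93 ± 0.29 (KO-labelled cells without niacin) to 2.64 ± 0.30 (WT-labelled cells with niacin), with adjusted p no higher than 1.43e-05 in any of the 4 comparisons. Acat2 shares 97.698% of 1477 bases with Acat3 and 98.652% of 445 bases with Tcp1. Tcp1 itself had log2 fold changes of 1.63 and 1.02 in KO-labelled and WT-labelled cells without niacin. Any effect of these copies on the Acat2 counts was not tested.

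From farnesyl diphosphate to lanosterol, all 3 enzymes rose in each comparison. Their summed RPKM averaged 147 ± 1.72 in stimulated and 18.6 ± 3.17 in unstimulated KO-labelled cells, and 143 ± 5.12 in stimulated and 21.4 ± 2.27 in unstimulated WT-labelled cells (SD, n = 3 each). Fdft1, squalene synthase, commits farnesyl diphosphate to sterols, and its log2 fold changes ran from 2.56 ± 0.18 (WT-labelled cells without niacin) to 2.89 ± 0.18 (KO-labelled cells without niacin), with adjusted p no higher than 4.77e-09 in any of the 4 comparisons. Its exons overlap those of Ctsb on the opposite strand over 18.3% of their length, and no source names the strand setting of the counting. Ctsb itself had log2 fold changes of 0.30 and 0.24 in KO-labelled and WT-labelled cells without niacin.

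Sqle (chromosome 15, 59315077 to 59331192, plus strand) encodes squalene epoxidase, a rate-limiting step of the late pathway. Without niacin, Sqle stood at 372, 378 and 379 CPM in stimulated KO-labelled libraries, against 55.6, 45 and 49.6 CPM unstimulated, and at 318, 360.5 and 368 CPM in stimulated WT-labelled libraries, against 48, 50.7 and 44.4 CPM unstimulated. With niacin, Sqle stood at 353, 391 and 344 CPM in stimulated KO-labelled libraries, against 40.8 and 43.7 CPM unstimulated, and at 358, 351 and 322 CPM in stimulated WT-labelled libraries, against 64.5, 40.4 and 43 CPM unstimulated. All stimulated libraries exceeded all unstimulated ones, and library 3 of the unstimulated KO-labelled cells lay between the other two here. Sqle had log2 fold changes from 2.80 ± 0.15 (WT-labelled cells with niacin) to 3.10 ± 0.18 (KO-labelled cells with niacin), with adjusted p no higher than 1.12e-10 in any of the 4 comparisons. Lss (chromosome 10, 76531588 to 76557138, plus strand), lanosterol synthase, closes the sterol rings. Without niacin, Lss stood at 271, 269 and 310.1 CPM in stimulated KO-labelled libraries, against 31.7, 25.5 and 20.8 CPM unstimulated, and at 283, 297 and 278 CPM in stimulated WT-labelled libraries, against 55.2, 30.9 and 33.5 CPM unstimulated. With niacin, Lss stood at 289.7, 268 and 340.5 CPM in stimulated KO-labelled libraries, against 27 and 30.8 CPM unstimulated, and at 347, 347 and 319.5 CPM in stimulated WT-labelled libraries, against 40.1, 32.7 and 31.9 CPM unstimulated. The states did not overlap, and library 1 was the highest of the unstimulated WT-labelled ones. Lss had log2 fold changes from 2.84 ± 0.19 (WT-labelled cells without niacin) to 3.44 ± 0.20 (KO-labelled cells without niacin), with adjusted p no higher than 1.23e-09 in any of the 4 comparisons.

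From lanosterol to cholesterol, all 8 enzymes rose in each comparison. Their summed RPKM averaged 349 ± 3.21 in stimulated and 80.8 ± 23.8 in unstimulated KO-labelled cells, and 343 ± 21.6 in stimulated and 94.2 ± 8.13 in unstimulated WT-labelled cells (SD, n = 3 each). Cyp51 (chromosome 5, 4081145 to 4104746, minus strand) encodes the lanosterol demethylase, a cytochrome P450. Without niacin, Cyp51 stood at 554, 542 and 548 CPM in stimulated KO-labelled libraries, against 87.8, 61.3 and 43.9 CPM unstimulated, and at 489.6, 552 and 539.9 CPM in stimulated WT-labelled libraries, against 86.7, 72.6 and 70.7 CPM unstimulated. With niacin, Cyp51 stood at 526, 534 and 508 CPM in stimulated KO-labelled libraries, against 54.1 and 57.1 CPM unstimulated, and at 436, 483 and 514 CPM in stimulated WT-labelled libraries, against 103, 59.8 and 53.2 CPM unstimulated. Stimulated libraries lay well above unstimulated ones in every group. Cyp51 had log2 fold changes from 2.73 ± 0.22 (WT-labelled cells with niacin) to 3.23 ± 0.27 (KO-labelled cells with niacin), with adjusted p no higher than 1.3e-08 in any of the 4 comparisons.

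Dhcr7 (chromosome 7, 143823145 to 143848410, plus strand) encodes the reductase that acts on 7-dehydrocholesterol, the last step of one branch. Without niacin, Dhcr7 stood at 188, 199.9 and 208 CPM in stimulated KO-labelled libraries, against 47.5, 42.2 and 38.8 CPM unstimulated, and at 198, 215 and 219 CPM in stimulated WT-labelled libraries, against 57.9, 51.6 and 40 CPM unstimulated. With niacin, Dhcr7 stood at 193, 188 and 198 CPM in stimulated KO-labelled libraries, against 37.7 and 43.2 CPM unstimulated, and at 247, 249 and 231 CPM in stimulated WT-labelled libraries, against 58.7, 37.8 and 40.9 CPM unstimulated. The stimulated WT-labelled libraries with niacin were the highest and did not overlap any unstimulated library. Dhcr7 had log2 fold changes from 2.08 ± 0.16 (WT-labelled cells without niacin) to 2.41 ± 0.16 (WT-labelled cells with niacin), with adjusted p no higher than 1.21e-08 in any of the 4 comparisons. Of the other members, Msmo1, which removes the C4 methyl groups, ran from 2.51 ± 0.25 (WT-labelled cells with niacin) to 3.05 ± 0.25 (KO-labelled cells without niacin), with adjusted p no higher than 5.26e-07 in any of the 4 comparisons. Nsdhl, which acts with it, ran from 2.16 ± 0.30 (WT-labelled cells with niacin) to 2.29 ± 0.30 (KO-labelled cells without niacin), with adjusted p no higher than 3.04e-05 in any of the 4 comparisons. Tm7sf2, a sterol reductase whose exons overlap those of Vps51 on the same strand over 15.3% of their length, ran from 2.26 ± 0.25 (KO-labelled cells without niacin) to 2.78 ± 0.25 (WT-labelled cells with niacin), with adjusted p no higher than 1.27e-06 in any of the 4 comparisons.

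Hsd17b7, the keto reductase of the same demethylation, had log2 fold changes from 1.67 ± 0.27 (WT-labelled cells with niacin) to 2.21 ± 0.32 (KO-labelled cells with niacin), with adjusted p no higher than 4.51e-05 in any of the 4 comparisons. Sc5d, the desaturase before Dhcr7, had the range 0.71 ± 0.17 (WT-labelled cells with niacin) to 1.17 ± 0.17 (KO-labelled cells without niacin), with adjusted p no higher than 0.00148 in any of the 4 comparisons. Ebp, the sterol isomerase, had the range 0.54 ± 0.18 (WT-labelled cells without niacin) to 1.09 ± 0.21 (KO-labelled cells with niacin), with adjusted p no higher than 0.0185 in any of the 4 comparisons. The Ebp call in WT-labelled cells without niacin was lost without library 3 of the unstimulated WT-labelled cells (0.44, adjusted p = 0.0925) or library 3 of the stimulated WT-labelled cells (0.47, adjusted p = 0.0694). Per length of all annotated exons, Cyp51 had the highest mean level of the 18 enzymes in stimulated WT-labelled cells, 119 ± 7.49 RPKM, against 17.4 ± 1.97 RPKM in unstimulated ones. Idi1, whose counts are uncertain, had the lowest, 5.75 ± 1.16 RPKM, against 1.91 ± 0.00789 RPKM in unstimulated ones (SD, n = 3 each). All exons together can be longer than a transcript, so this order depends on the annotation. For Fdps they span 4208 bases, against 1382 in its longest coding transcript.

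**Figure D2:**
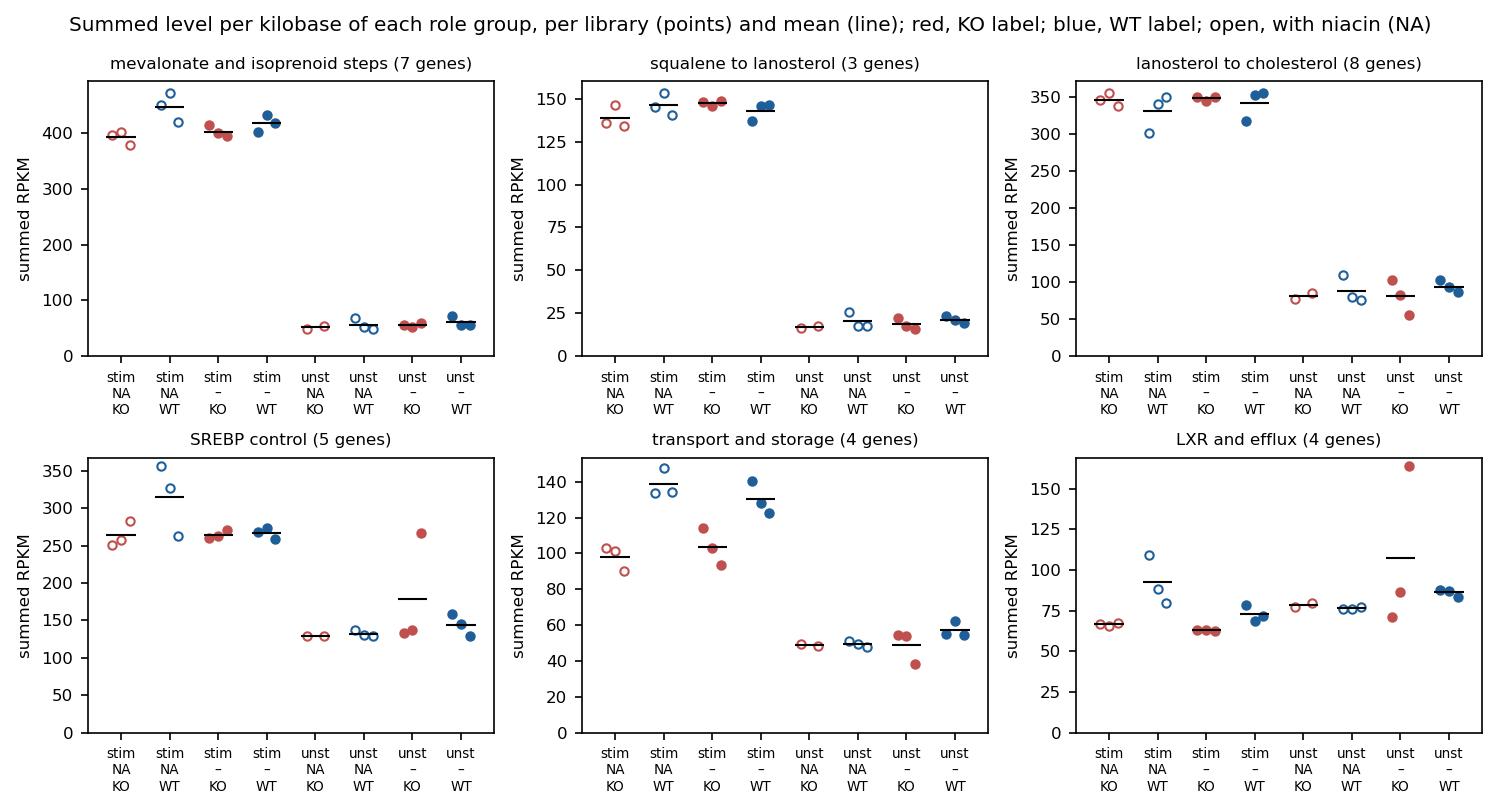
Summed RPKM of the genes of each role (panels) in each library (points; line, group mean), with the stimulated groups on the left and the unstimulated ones on the right. The 3 synthesis panels split by stimulation in every library, whereas in the LXR and efflux panel the states overlap.

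In the SREBP control system, 4 of 5 genes rose in every comparison. Scap passed the test in none with all libraries in the fit and the filter on low counts. The rises of those 4 genes were smaller than those of most enzymes. Insig1 (chromosome 5, 28071363 to 28078662, plus strand) encodes the feedback protein that is itself an SREBP target. Without niacin, Insig1 stood at 129, 115 and 141 CPM in stimulated KO-labelled libraries, against 45.1, 39.4 and 56.7 CPM unstimulated, and at 116, 123 and 117 CPM in stimulated WT-labelled libraries, against 52.7, 42.7 and 39.6 CPM unstimulated. With niacin, Insig1 stood at 105, 128 and 128 CPM in stimulated KO-labelled libraries, against 37.3 and 34 CPM unstimulated, and at 105, 112 and 90.7 CPM in stimulated WT-labelled libraries, against 48.3, 40.5 and 35.6 CPM unstimulated. The states did not overlap, and library 3 of the unstimulated KO-labelled cells was the highest unstimulated one. Insig1 had log2 fold changes from 1.31 ± 0.16 (WT-labelled cells with niacin) to 1.75 ± 0.19 (KO-labelled cells with niacin), with adjusted p no higher than 1.14e-06 in any of the 4 comparisons.

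Insig2 (chromosome 1, 121304353 to 121332589, minus strand) encodes the second INSIG protein. Without niacin, Insig2 stood at 45.4, 43.5 and 46.1 CPM in stimulated KO-labelled libraries, against 23, 25.4 and 11.9 CPM unstimulated, and at 37.9, 47.7 and 45.1 CPM in stimulated WT-labelled libraries, against 21, 25.5 and 25.6 CPM unstimulated. With niacin, Insig2 stood at 46.6, 39.9 and 45.1 CPM in stimulated KO-labelled libraries, against 26.4 and 26.1 CPM unstimulated, and at 35.3, 41 and 43.4 CPM in stimulated WT-labelled libraries, against 24.3, 29.8 and 24.9 CPM unstimulated. The states did not overlap within any pair of groups. Insig2 had log2 fold changes from 0.60 ± 0.20 (WT-labelled cells with niacin) to 1.15 ± 0.20 (KO-labelled cells without niacin), with adjusted p no higher than 0.0144 in any of the 4 comparisons. With niacin this call was lost in KO-labelled cells without library 2 or 3 of the unstimulated cells (0.75 and 0.73, adjusted p = 0.0644 and 0.0624), against 0.74 with all libraries. In WT-labelled cells with niacin it was lost on leaving out library 3 of the unstimulated cells (0.56, adjusted p = 0.0506) or libraries 1 and 2 of the stimulated cells (0.70, adjusted p = 0.0707), against 0.60 with all libraries.

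Srebf1 (chromosome 11, 60199089 to 60222581, minus strand) encodes SREBP-1, the form tied mostly to fatty acid genes. Without niacin, Srebf1 stood at 288, 320.1 and 312 CPM in stimulated KO-labelled libraries, against 124, 121 and 333 CPM unstimulated, and at 302, 301 and 317 CPM in stimulated WT-labelled libraries, against 156, 139.7 and 116 CPM unstimulated. With niacin, Srebf1 stood at 306, 314 and 367 CPM in stimulated KO-labelled libraries, against 106 and 108 CPM unstimulated, and at 461, 396 and 314 CPM in stimulated WT-labelled libraries, against 128, 107 and 103 CPM unstimulated. Library 3 of the unstimulated KO-labelled cells, at 333 CPM, stood above all 3 stimulated libraries of its comparison, and in the other 3 comparisons the states did not overlap. Srebf1 had log2 fold changes from 0.67 ± 0.26 (KO-labelled cells without niacin) to 1.79 ± 0.27 (WT-labelled cells with niacin), with adjusted p no higher than 0.0351 in any of the 4 comparisons. Without that library the difference in KO-labelled cells was 1.32 (adjusted p = 5.66e-07); with it, the call was lost on leaving out any of the other 5 libraries of the comparison (0.43 to 0.72, adjusted p = 0.0505 to 0.178).

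Srebf2 (chromosome 15, 82147266 to 82205376, plus strand) encodes SREBP-2, the main activator of the synthesis enzymes. Without niacin, Srebf2 stood at 699, 702 and 696 CPM in stimulated KO-labelled libraries, against 379.6, 401 and 738 CPM unstimulated, and at 770.3, 768 and 682 CPM in stimulated WT-labelled libraries, against 449, 413 and 375 CPM unstimulated. With niacin, Srebf2 stood at 659.6, 651 and 724 CPM in stimulated KO-labelled libraries, against 386 and 379 CPM unstimulated, and at 1044, 941 and 759 CPM in stimulated WT-labelled libraries, against 395, 383 and 389.6 CPM unstimulated. The same library, at 738 CPM, again lay above the stimulated libraries of its comparison. Srebf2 had log2 fold changes from 0.47 ± 0.18 (KO-labelled cells without niacin) to 1.23 ± 0.18 (WT-labelled cells with niacin), with adjusted p no higher than 0.0335 in any of the 4 comparisons. Without that library the difference in KO-labelled cells was 0.84 (adjusted p = 5.42e-06); with it, the call was lost without any of the other 5 libraries (0.30 to 0.47, adjusted p = 0.0644 to 0.173).

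Scap (chromosome 9, 110333288 to 110384950, plus strand) encodes the escort of the SREBP proteins. Without niacin, Scap stood at 105, 120.4 and 128 CPM in stimulated KO-labelled libraries, against 101, 112 and 288 CPM unstimulated, and at 87.5, 97.7 and 117 CPM in stimulated WT-labelled libraries, against 132, 119 and 99.3 CPM unstimulated. With niacin, Scap stood at 128, 140.1 and 136 CPM in stimulated KO-labelled libraries, against 97.1 and 111 CPM unstimulated, and at 154, 155 and 99.7 CPM in stimulated WT-labelled libraries, against 97.8, 99.5 and 105 CPM unstimulated. The states overlapped in 3 of the 4 comparisons. Its log2 differences were -0.50 ± 0.27 and -0.21 ± 0.27 without niacin in KO-labelled and WT-labelled cells, and 0.37 ± 0.30 and 0.43 ± 0.27 with niacin (adjusted p = 0.123, 0.544, 0.317 and 0.181). With library 3 of the unstimulated KO-labelled cells left out, the difference in KO-labelled cells without niacin was 0.14 (adjusted p = 0.474). In that fit Scap rose in WT-labelled cells with niacin, by 0.43 (adjusted p = 0.0172). There, stimulated libraries 1 and 2, which stood apart, averaged 154.2 CPM. Stimulated library 3, at 99.7 CPM, lay within the unstimulated range. Scap was called lower in KO-labelled cells without niacin when library 1 (-0.76, adjusted p = 0.0192) or 2 (-0.72, adjusted p = 0.0359) of the unstimulated cells was left out and with no filter on low counts (-0.52, adjusted p = 0.0203). It was called higher in KO-labelled cells with niacin when only the compared groups were fitted (0.35, adjusted p = 0.0145) and when the 4 libraries that stood apart were left out (0.32, adjusted p = 0.0405).

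Within the unstimulated KO-labelled group, library 3 differed from the other two in both directions. It stood below both in 13 of the 18 synthesis enzymes and above both in 3 of them, Mvk, Mvd and Tm7sf2. Of the 13 other members it stood above both in 5, namely Insig1, Srebf1, Srebf2, Scap and Nr1h2, and below both in 6. On the log2 scale its ratio to the mean of the others was 1.44 for Srebf1, 1.43 for Scap, 1.36 for Nr1h2 and 1.29 for Mvk, against -1.98 for Nsdhl and -1.37 for Msmo1. Stimulation values without it are given with Srebf1, Srebf2, Scap, Abcg1, Nr1h2, Ggps1 and Apoe.

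**Figure D3:**
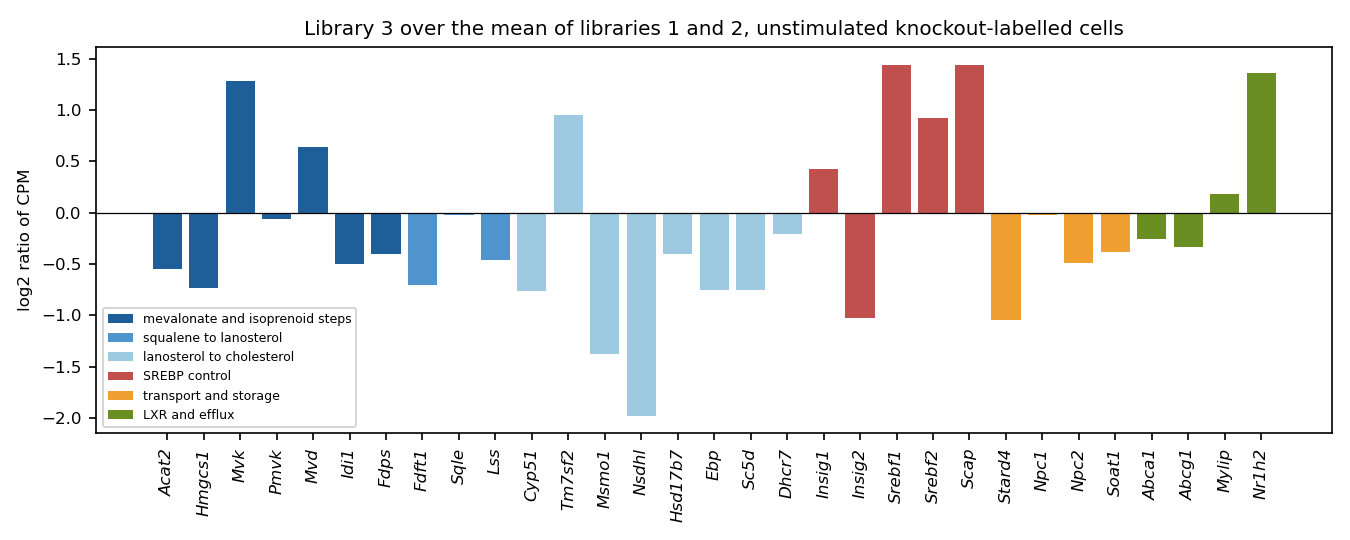
Log2 ratio of the CPM in library 3 to the mean of libraries 1 and 2 of the unstimulated KO-labelled cells, for each of the 31 genes (bars, coloured by role). Most synthesis enzymes are below 0, and Srebf1, Scap, Nr1h2 and Mvk are above 1.

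Among the genes of transport and storage, Stard4 and Npc2 rose in all 4 comparisons, and Npc1 and Soat1 in some. Stard4 (chromosome 18, 33199355 to 33213862, minus strand) encodes a carrier that moves cholesterol between membranes. Without niacin, Stard4 stood at 126, 124 and 105 CPM in stimulated KO-labelled libraries, against 31, 20.8 and 12.6 CPM unstimulated, and at 117, 131 and 125 CPM in stimulated WT-labelled libraries, against 28.3, 20.4 and 21.1 CPM unstimulated. With niacin, Stard4 stood at 115, 118 and 106 CPM in stimulated KO-labelled libraries, against 18.7 and 25.2 CPM unstimulated, and at 96.9, 112 and 131 CPM in stimulated WT-labelled libraries, against 35, 22.7 and 17.2 CPM unstimulated. All stimulated libraries were above all unstimulated ones. Stard4 had log2 fold changes from 2.18 ± 0.26 (WT-labelled cells with niacin) to 2.45 ± 0.27 (KO-labelled cells without niacin), with adjusted p no higher than 4.3e-06 in any of the 4 comparisons.

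Npc2 (chromosome 12, 84754562 to 84773152, minus strand) encodes the soluble lysosomal protein that hands cholesterol to NPC1. Without niacin, Npc2 stood at 449, 397 and 361 CPM in stimulated KO-labelled libraries, against 228, 238 and 166 CPM unstimulated, and at 590.4, 518 and 495 CPM in stimulated WT-labelled libraries, against 233, 285 and 242 CPM unstimulated. With niacin, Npc2 stood at 401, 388 and 344 CPM in stimulated KO-labelled libraries, against 212 and 202 CPM unstimulated, and at 586, 650 and 551 CPM in stimulated WT-labelled libraries, against 206, 213 and 206 CPM unstimulated. The states did not overlap, and among stimulated libraries each KO-labelled one lay below each WT-labelled one in both niacin settings. Npc2 had log2 fold changes from 0.87 ± 0.16 (KO-labelled cells with niacin) to 1.51 ± 0.14 (WT-labelled cells with niacin), with adjusted p no higher than 0.000127 in any of the 4 comparisons.

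Npc1 (chromosome 18, 12189693 to 12236400, minus strand) encodes the lysosomal membrane protein that exports cholesterol. Without niacin, Npc1 stood at 37.5, 26.9 and 32.9 CPM in stimulated KO-labelled libraries, against 34.7, 28.8 and 31.2 CPM unstimulated, and at 51.4, 48.2 and 37.4 CPM in stimulated WT-labelled libraries, against 31.3, 29.1 and 28.8 CPM unstimulated. With niacin, Npc1 stood at 34.5, 29.7 and 35.8 CPM in stimulated KO-labelled libraries, against 34.2 and 27.6 CPM unstimulated, and at 44.6, 47.4 and 41 CPM in stimulated WT-labelled libraries, against 26, 28.1 and 31.6 CPM unstimulated. The states did not overlap in WT-labelled cells and overlapped in KO-labelled cells. Npc1 rose by 0.62 ± 0.16 without and 0.63 ± 0.16 with niacin in WT-labelled cells (adjusted p = 0.00312 and 0.00219). In KO-labelled cells its log2 difference was 0.04 ± 0.16 without and 0.11 ± 0.18 with niacin (adjusted p = 0.847 and 0.615). The difference between the labels in this response, -0.58 ± 0.22 without niacin, did not pass the test (adjusted p = 0.426). The call with niacin was lost without libraries 1 and 2 of the stimulated WT-labelled cells (0.49, adjusted p = 0.109).

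Soat1 (chromosome 1, 156424525 to 156474331, minus strand) encodes the enzyme that esterifies cholesterol for storage. Without niacin, Soat1 stood at 52.3, 51.4 and 50.9 CPM in stimulated KO-labelled libraries, against 35.4, 37.8 and 28.1 CPM unstimulated, and at 60.9, 50.5 and 56.2 CPM in stimulated WT-labelled libraries, against 40.4, 35.7 and 35.6 CPM unstimulated. With niacin, Soat1 stood at 56.9, 57.4 and 46.6 CPM in stimulated KO-labelled libraries, against 38.1 and 39 CPM unstimulated, and at 42.4, 36.4 and 56 CPM in stimulated WT-labelled libraries, against 46.7, 38 and 40.3 CPM unstimulated. Only in WT-labelled cells with niacin did the states overlap, where libraries 1 and 2 of the stimulated cells were low. Soat1 rose by 0.61 ± 0.16 and 0.59 ± 0.16 in KO-labelled and WT-labelled cells without niacin and by 0.48 ± 0.18 in KO-labelled cells with niacin (adjusted p = 0.00321, 0.00502 and 0.0319). In WT-labelled cells with niacin the log2 difference was 0.11 ± 0.16 (adjusted p = 0.576), and without the 4 libraries that stood apart 0.40 (adjusted p = 0.0473). The call in KO-labelled cells with niacin was lost without library 2 or 3 of the unstimulated or library 1 or 2 of the stimulated cells (adjusted p = 0.0802 to 0.152), and with the replicate number as a block (adjusted p = 0.0562).

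**Figure D4:**
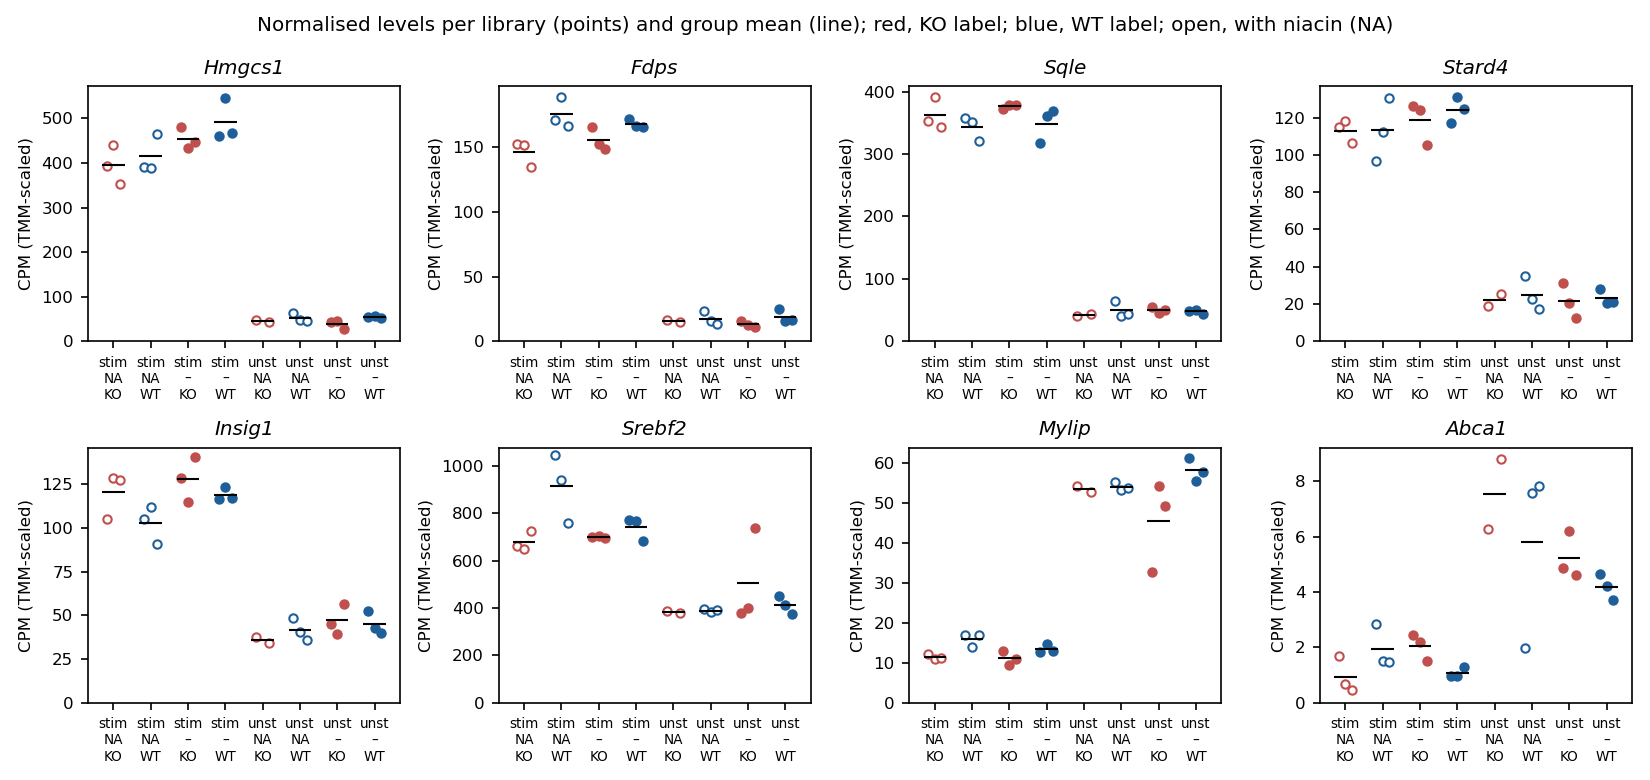
CPM of 8 genes in each library (points; line, group mean), with stimulated groups left of unstimulated ones and KO-labelled (red) left of WT-labelled (blue); open points had niacin. Hmgcs1, Fdps, Sqle, Stard4 and Insig1 are high on the left, Mylip and Abca1 are high on the right, and Srebf2 has 1 unstimulated KO-labelled library at the stimulated level.

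In the LXR and efflux arm, Abca1 and Mylip fell in all 4 comparisons, and Abcg1 and Nr1h2 did not follow them. Mylip (chromosome 13, 45389742 to 45412022, plus strand) encodes a ubiquitin ligase, also named IDOL, that sends lipoprotein receptors for degradation. Without niacin, Mylip stood at 13, 9.48 and 11.1 CPM in stimulated KO-labelled libraries, against 32.9, 54.2 and 49.3 CPM unstimulated, and at 12.7, 14.7 and 13.1 CPM in stimulated WT-labelled libraries, against 61.4, 55.5 and 57.9 CPM unstimulated. With niacin, Mylip stood at 12.2, 11.1 and 11.2 CPM in stimulated KO-labelled libraries, against 54.4 and 52.9 CPM unstimulated, and at 17, 14 and 16.9 CPM in stimulated WT-labelled libraries, against 55.4, 53.3 and 53.7 CPM unstimulated. No stimulated library reached the lowest unstimulated one. Mylip had log2 fold changes from -2.23 ± 0.18 (KO-labelled cells with niacin) to -1.76 ± 0.17 (WT-labelled cells with niacin), with adjusted p no higher than 4.57e-08 in any of the 4 comparisons.

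Abca1 (chromosome 4, 53030787 to 53159895, minus strand) encodes the transporter that loads cholesterol onto apolipoprotein A-I. Without niacin, Abca1 stood at 2.43, 2.21 and 1.51 CPM in stimulated KO-labelled libraries, against 4.88, 6.2 and 4.62 CPM unstimulated, and at 0.96, 0.948 and 1.29 CPM in stimulated WT-labelled libraries, against 4.64, 4.2 and 3.73 CPM unstimulated. With niacin, Abca1 stood at 1.68, 0.67 and 0.465 CPM in stimulated KO-labelled libraries, against 6.27 and 8.8 CPM unstimulated, and at 2.86, 1.5 and 1.48 CPM in stimulated WT-labelled libraries, against 1.98, 7.57 and 7.82 CPM unstimulated. The gene was low throughout, and the states overlapped only with niacin in WT-labelled cells, where unstimulated library 1 stood at 1.98 CPM. Abca1 had log2 fold changes from -2.99 ± 0.51 (KO-labelled cells with niacin) to -1.35 ± 0.46 (KO-labelled cells without niacin), with adjusted p no higher than 0.0177 in any of the 4 comparisons. In KO-labelled cells without niacin the call was lost without library 2 of the unstimulated cells (-1.21, adjusted p = 0.0542) or library 3 of the stimulated cells (-1.17, adjusted p = 0.0723). Summed over libraries, the stimulated group without niacin held 140 counts in KO-labelled and 83 in WT-labelled cells, against 349 and 289 in the unstimulated groups.

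Abcg1 (chromosome 17, 31057698 to 31115777, plus strand) encodes the transporter that exports cholesterol to HDL. Without niacin, Abcg1 stood at 40.1, 39.5 and 31 CPM in stimulated KO-labelled libraries, against 37.6, 46.6 and 33.4 CPM unstimulated, and at 49.4, 51.8 and 54.3 CPM in stimulated WT-labelled libraries, against 38.9, 48.9 and 44.6 CPM unstimulated. With niacin, Abcg1 stood at 48.4, 48.8 and 42.5 CPM in stimulated KO-labelled libraries, against 35.2 and 36.4 CPM unstimulated, and at 61.8, 64.8 and 55.5 CPM in stimulated WT-labelled libraries, against 34.6, 36.2 and 39.5 CPM unstimulated. It rose by 0.72 ± 0.14 in WT-labelled cells with niacin (adjusted p = 0.000324), and without libraries 1 and 2 of the stimulated group by 0.57, which did not pass (adjusted p = 0.0521). Elsewhere the log2 differences were -0.09 ± 0.14 and 0.23 ± 0.14 without niacin in KO-labelled and WT-labelled cells and 0.38 ± 0.16 in KO-labelled cells with niacin (adjusted p = 0.615, 0.195 and 0.0589). With library 3 of the unstimulated KO-labelled cells left out the last of these passed (adjusted p = 0.0284).

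Nr1h2 (chromosome 7, 44549616 to 44553951, minus strand) encodes LXR-beta. Without niacin, Nr1h2 stood at 163, 169 and 173 CPM in stimulated KO-labelled libraries, against 172, 193 and 469 CPM unstimulated, and at 209.5, 171 and 181 CPM in stimulated WT-labelled libraries, against 198, 193 and 181 CPM unstimulated. With niacin, Nr1h2 stood at 171, 167 and 179 CPM in stimulated KO-labelled libraries, against 172 and 179 CPM unstimulated, and at 298, 227 and 204 CPM in stimulated WT-labelled libraries, against 167, 168 and 168 CPM unstimulated. The unstimulated KO-labelled library 3 stood at 469 CPM, above every other library. Nr1h2 fell by 0.72 on the log2 scale in KO-labelled cells without niacin (SE 0.24, adjusted p = 0.017), a call that was lost without that library (-0.12 (adjusted p = 0.439)). In the other 3 comparisons the log2 differences were -0.03 ± 0.24 in WT-labelled cells without niacin, and -0.03 ± 0.27 and 0.53 ± 0.24 with niacin in KO-labelled and WT-labelled cells (adjusted p = 0.938, 0.944 and 0.0698). Without that library Nr1h2 rose in WT-labelled cells with niacin, by 0.53 (adjusted p = 0.000453). There, stimulated libraries 1 and 2, which stood apart, averaged 262.1 CPM, against 203.7 CPM in stimulated library 3.

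A further list of 37 genes of the same pathways, of which 34 were tested, moved in both directions. Without niacin, 10 rose and 14 fell in KO-labelled cells, and 8 rose and 12 fell in WT-labelled cells; with niacin, 9 rose and 11 fell in KO-labelled cells, and 11 rose and 10 fell in WT-labelled cells. In that order 25.2%, 23.4%, 24.5% and 26.0% of all genes rose and 27.5%, 21.7%, 25.3% and 26.6% fell. The median log2 fold change of the 34 was -0.34, -0.13, -0.14 and -0.15 in that order. Vldlr, a receptor for lipoproteins that MYLIP is known to target, had the largest rise. Without niacin it held 2714 counts in stimulated KO-labelled cells, against 0 in unstimulated ones, and 3214 counts in stimulated WT-labelled cells, against 0 in unstimulated ones. Taking the limit of 3 counts over the group at 0, it was at least 863.5-fold and 956-fold higher. With niacin it held 2378 against 1 count in KO-labelled cells (ratio 1632, 95% counting interval 293 to 64500) and 2849 against 2 counts in WT-labelled cells (ratio 1650, 456 to 13630).

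Scarb1, the receptor for HDL, averaged 178 ± 8.09 CPM in stimulated and 31.8 ± 9.15 CPM in unstimulated KO-labelled cells, and 175 ± 16.6 and 27.6 ± 5.46 CPM in WT-labelled cells (SD, n = 3 each). Scarb1 had log2 fold changes of 2.49 ± 0.22 and 2.66 ± 0.22 in that order (adjusted p = 1.78e-08 and 8.24e-09), and rose with niacin in both labels as well. Acly, which makes cytosolic acetyl-CoA from citrate, ran from 1.43 ± 0.11 (WT-labelled cells without niacin) to 1.68 ± 0.11 (KO-labelled cells without niacin), with adjusted p no higher than 1.24e-08 in any of the 4 comparisons. Aacs, which makes acetoacetyl-CoA, had 1.59 ± 0.20 in KO-labelled and 1.54 ± 0.20 in WT-labelled cells without niacin (adjusted p = 2.21e-06 and 4.02e-06), and rose with niacin in both labels.

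Among the genes that fell, Gramd1a, a carrier of cholesterol from the plasma membrane to the endoplasmic reticulum, had log2 fold changes from -1.77 ± 0.24 (KO-labelled cells with niacin) to -0.99 ± 0.22 (WT-labelled cells with niacin), with adjusted p no higher than 0.00102 in any of the 4 comparisons. Nceh1, a hydrolase of cholesteryl esters, ran from -1.24 ± 0.17 (WT-labelled cells without niacin) to -0.66 ± 0.17 (KO-labelled cells without niacin), with adjusted p no higher than 0.00246 in any of the 4 comparisons. Mbtps2, the protease that makes the second cut in SREBP, ran from -1.77 ± 0.31 (WT-labelled cells with niacin) to -1.08 ± 0.30 (WT-labelled cells without niacin), with adjusted p no higher than 0.00644 in any of the 4 comparisons. Without libraries 1 and 2 of the stimulated WT-labelled cells with niacin, which held 2.48 and 1.81 CPM of Mbtps2 against 5.64 CPM in library 3, that end of the range was -1.03 (adjusted p = 0.0284). Ggps1, which makes geranylgeranyl diphosphate from the product of Fdps, fell in WT-labelled cells, with log2 fold changes of -0.74 ± 0.27 without and -1.21 ± 0.27 with niacin (adjusted p = 0.0286 and 0.000864). In KO-labelled cells its log2 differences were -0.47 ± 0.27 and -0.46 ± 0.29 (adjusted p = 0.145 and 0.201). The Ggps1 call with niacin was lost without libraries 1 and 2 of the stimulated WT-labelled cells (-0.83, adjusted p = 0.116), and that without niacin on leaving out library 1 or 2 of the stimulated or library 2 or 3 of the unstimulated cells (-0.62 to -0.72, adjusted p = 0.0771 to 0.106). Without library 3 of the unstimulated KO-labelled cells, Ggps1 fell in KO-labelled cells without niacin too (-0.80, adjusted p = 0.0019). Apoe, a carrier of lipids in lipoproteins, fell in KO-labelled cells without niacin (-1.86 ± 0.52, adjusted p = 0.00532), where library 3 of the unstimulated cells held 19.9 CPM, against 4.95 and 4.60 CPM in the others. Without that library the Apoe difference was -0.85 and did not pass (adjusted p = 0.109), while those in WT-labelled cells without niacin (-1.20, adjusted p = 0.0191) and in KO-labelled cells with niacin (-1.12, adjusted p = 0.0356) did, against adjusted p = 0.0674 and 0.102 with it. Nr1h3, the gene of LXR-alpha, fell in KO-labelled cells with niacin (-2.45 ± 0.74, adjusted p = 0.00952), at 0.78, 0.419 and 0 CPM stimulated against 1.54 and 2.9 CPM unstimulated. That call was lost without library 3 of the unstimulated cells (-1.92, adjusted p = 0.1) and when just that pair of groups was fitted (-2.47, adjusted p = 0.0603).

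The niacin comparisons ask what 5 mM niacin did within each state and label. No member passed edgeR's test in any of the 4 comparisons, nor in their average. Over all genes, 1 was called in stimulated KO-labelled cells (0.00592%) and 0 in the other 3 comparisons (0%), while the average called 0.154%. Without adjustment, p was under 0.05 for 2 and 1 members in stimulated KO-labelled and WT-labelled cells and for 5 and 1 members in unstimulated ones, where this held for 5.22%, 9.96%, 7.96% and 2.71% of all genes. DESeq2 called none of the members either. The average log2 difference of the members ran from -0.20 to 0.18, and all 31 of its 95% intervals lay within 1 of 0.

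The synthesis enzymes stayed close to 0 in the average over the 4 backgrounds, with log2 differences between -0.20 and 0.09 and a median of -0.02. Hmgcs1 averaged 395 ± 44.2 CPM with and 454 ± 23.2 CPM without niacin in stimulated KO-labelled cells, and 416 ± 43.9 CPM with and 492 ± 48.1 CPM without niacin in stimulated WT-labelled cells (SD, n = 3 each). The widest log2 difference in stimulated cells was that of Abca1, which encodes an efflux transporter, at -1.12 ± 0.48 in KO-labelled and 0.86 ± 0.47 in WT-labelled cells (adjusted p = 0.873 and 0.551). Without libraries 1 and 2 of the stimulated WT-labelled cells with niacin, the WT-labelled value was 0.46 (adjusted p = 1). Between the labels this difference was -1.98 ± 0.67 (adjusted p = 0.894). In unstimulated KO-labelled cells the widest was Srebf1, at -0.84 ± 0.30 (adjusted p = 0.608), where library 3 without niacin stood at 333 CPM, against 124 and 121 CPM in the others. Without that library the Srebf1 difference was -0.19 (adjusted p = 1).

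The genotype comparisons ask how KO-labelled cells differed from WT-labelled cells in each condition. By edgeR, Npc2 was the only member called. It was lower in stimulated KO-labelled cells with niacin than in the matching WT-labelled cells, at 401, 388 and 344 CPM against 586, 650 and 551 CPM, a log2 difference of -0.66 ± 0.14 (adjusted p = 0.0219), where 1.44% of all genes were called. Those groups did not overlap, as held for 26.5% of all genes. Averaged over the 4 conditions its log2 difference was -0.34 ± 0.07 (adjusted p = 0.0352), where 0.326% of all genes were called. Without niacin, the stimulated groups did not overlap either (20.5% of all genes), at 449, 397 and 361 CPM in KO-labelled against 590.4, 518 and 495 CPM in WT-labelled cells, but the difference of -0.41 ± 0.14 did not pass (adjusted p = 0.372). Unstimulated, it was -0.27 ± 0.14 without and -0.01 ± 0.15 with niacin (adjusted p = 0.494 and 1).

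The Npc2 call in stimulated cells with niacin was lost without library 1 or 2 of the WT-labelled cells or library 2 or 3 of the KO-labelled cells (-0.59 to -0.68, adjusted p = 0.0752 to 0.106), and without both libraries 1 and 2 of the WT-labelled cells (-0.57, adjusted p = 0.381), where the average was lost too (-0.31, adjusted p = 0.168). The average call was lost on leaving out any of 14 of the 23 libraries (-0.31 to -0.35, adjusted p = 0.0536 to 0.187). Abcg1, the exporter to HDL, was not called by edgeR, with log2 differences of -0.49 ± 0.14 without and -0.38 ± 0.14 with niacin in stimulated cells (adjusted p = 0.314 and 0.152). In both settings each KO-labelled library lay below each WT-labelled one. DESeq2 called Abcg1 in both (-0.51 and -0.42, adjusted p = 0.0431 and 0.0422), and Mylip with niacin (-0.51, adjusted p = 0.0464). Without library 3 of the unstimulated KO-labelled cells, edgeR also called Nr1h2 (-0.49, adjusted p = 0.0112) and Srebf2 (-0.43, adjusted p = 0.0121) lower in stimulated KO-labelled cells with niacin. In the WT-labelled cells there, libraries 1 and 2, which stood apart, averaged 262.1 CPM of Nr1h2 and 992.6 CPM of Srebf2. Library 3 of those cells held 203.7 and 758.6 CPM. Leaving out library 3 of the WT-labelled cells there, Idi1 was called higher (0.92, adjusted p = 0.0467), and leaving out library 2 of the unstimulated KO-labelled cells, Acat2 was called lower in unstimulated cells (-0.63, adjusted p = 0.043). Without adjustment, p was under 0.05 for 3 and 8 members in stimulated cells without and with niacin, and for 6 and 0 members in unstimulated ones, where this held for 8.45%, 19.4%, 10.4% and 0.983% of all genes. By edgeR no member was called in unstimulated cells or in stimulated cells without niacin, where 0.0415% (unstimulated), 0.0355% (unstimulated with niacin) and 0.113% (stimulated) of all genes were.

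**Figure D5:**
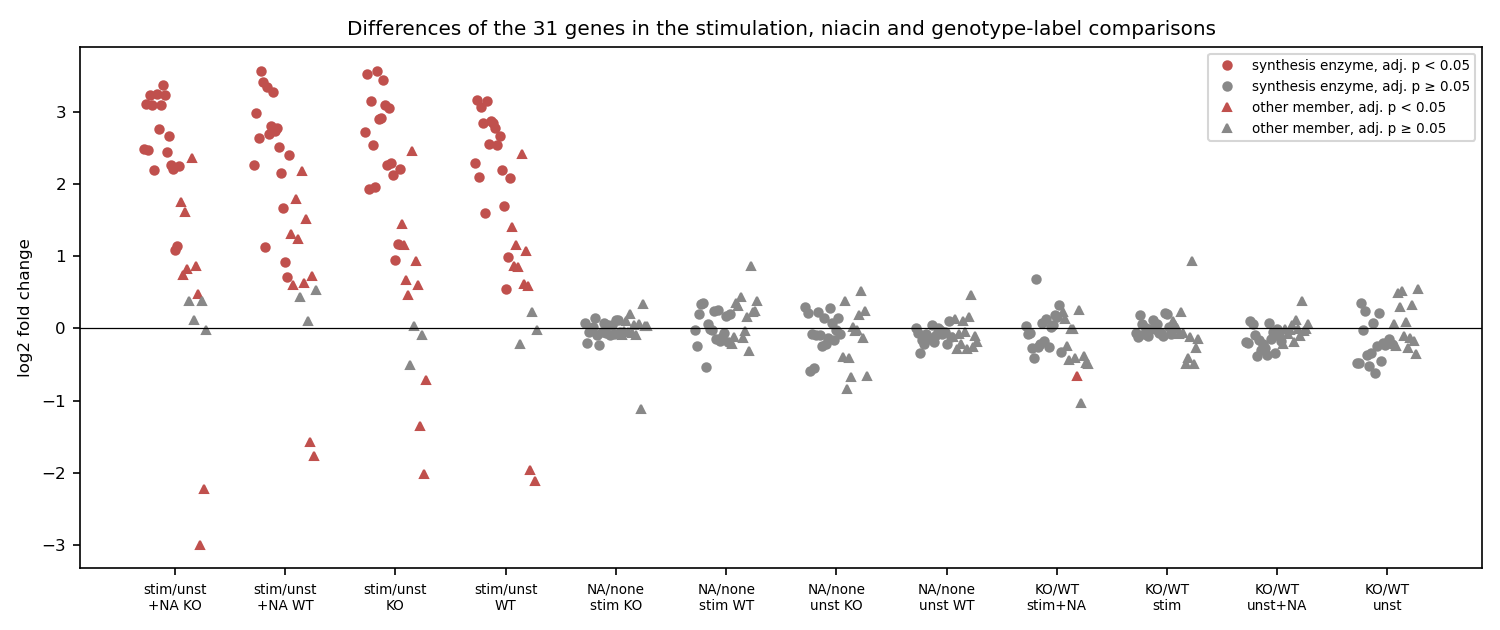
Log2 fold change of the 31 genes (points; circles, the 18 synthesis enzymes; triangles, the other 13) in the 4 stimulation, 4 niacin and 4 genotype-label comparisons; red marks adjusted p under 0.05. The stimulation columns reach beyond 3 on the log2 scale, and among the niacin and genotype columns 1 point, Npc2, is red.

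Whether the response to stimulation differed with niacin or by label was tested directly. No member passed: the smallest adjusted p was 0.718 for niacin in KO-labelled cells, 0.66 for niacin in WT-labelled cells and 0.426 for the label (edgeR). The niacin difference by label gave no smaller adjusted p than 0.894 stimulated and 1 unstimulated. Over all genes 1 was called for stimulation by label and 1 for niacin by label unstimulated (0.00592% each), and 0 in the other 3 tests. Without adjustment, p was under 0.05 for 4, 4, 3, 1 and 0 members in the same order, against 6.77%, 7.36%, 10.5%, 5.18% and 1.93% of all genes. DESeq2 called no member in any of the 5. The differences across the members ran from -1.64 to 0.94 for niacin in KO-labelled cells, from -0.48 to 0.64 in WT-labelled cells, and from -0.69 to 0.62 for the label.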

How the data were processed

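The analysis started from the deposited read counts per gene of 23 libraries, made with the SMART-seq V4 kit. The submitters' processing notes name Trimmomatic 0.38, STAR 2.7.0e, featureCounts 1.6.3 and the builds GRCm38.p5 and mm10. No source names the strand setting. Gene coordinates are those of the deposited table.

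Libraries were grouped by their labels. edgeR 4.0.16 (R 4.3.3) fitted a mean per group over all libraries with TMM factors after filterByExpr (minimum count 10), with a quasi-likelihood F test and Benjamini-Hochberg adjustment at 0.05, tested on simulated data. CPM use TMM factors, RPKM also the exon length. Intervals are 95%; counting intervals and the limit of 3 counts cover counting error only. Copies were sought with BLAST 2.17.0. Alternatives were DESeq2 1.42.0, RLE factors, no filter, a replicate block, only the compared groups, and leaving out libraries.

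All 31 members may be named; values in every library are given for 17 chosen ones and for up to 3 per direction with the largest called fold change. Members and lists were chosen with earlier results of these data known. Other genes, among them some of this pathway, were not analysed here.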

Additional observations from a re-analysis of the deposited data

How the results depend on the processing

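No direction of a called result was turned under the settings tried. Leaving out single libraries, 25 to 28 members were called on stimulation in KO-labelled cells and 27 to 28 in WT-labelled cells without niacin; with niacin it was 25 to 28 in KO-labelled and 27 to 30 in WT-labelled cells. By genotype label the count ran from 0 to 3 in stimulated cells with niacin, from 0 to 1 unstimulated, and from 0 to 1 in the average. DESeq2 called 3 members by label in stimulated cells with niacin (Npc2, Mylip and Abcg1), 1 in stimulated cells without niacin (Abcg1) and 2 in the average (Npc2 and Abcg1), against 1, 0 and 1 by edgeR. Without libraries 1 and 2 of the stimulated WT-labelled cells with niacin, 0 were called there and 0 in the average. Without the 4 libraries that stood apart, 0 were called in stimulated cells with niacin. With no filter on low counts, 1 member, Srebf1, was called for niacin in unstimulated KO-labelled cells (-0.81, adjusted p = 0.00877), and the cause was not tested.

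In KO-labelled cells without niacin, the Srebf1 rise was also lost with RLE factors (0.57, adjusted p = 0.0756), with DESeq2 (0.57, adjusted p = 0.0686) and with only the compared groups (0.64, adjusted p = 0.21). That of Srebf2 was lost in the same settings (0.37 to 0.43, adjusted p = 0.0956 to 0.218), and the fall of Nr1h2 with only the compared groups (-0.76, adjusted p = 0.128). Soat1 in KO-labelled cells with niacin was lost with RLE factors (0.40, adjusted p = 0.0596) and with no filter (0.41, adjusted p = 0.219). Nr1h2 in WT-labelled cells with niacin was called higher in 4 further settings (0.50 to 0.64, adjusted p = 0.0183 to 0.0486). All 4 kept libraries 1 and 2 of the stimulated cells, which stood apart. Abcg1 in KO-labelled cells with niacin was called higher in 3 further settings (0.36 to 0.44, adjusted p = 0.0303 to 0.0497).

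Over all genes, counts by niacin and label depended on the tool. In stimulated KO-labelled, stimulated WT-labelled, unstimulated KO-labelled and unstimulated WT-labelled cells, niacin gave 1, 0, 0 and 0 calls by edgeR, 11, 42, 7 and 14 by DESeq2, and 101, 344, 418 and 62 with no filter. By label, stimulated with niacin, stimulated, unstimulated with niacin and unstimulated, edgeR gave 243, 19, 6 and 7, DESeq2 1122, 102, 18 and 22, and no filter 1138, 208, 23 and 673. The averages of niacin and label gave 26 and 55 by edgeR, 109 and 257 by DESeq2, and 200 and 347 with no filter. Stimulation of KO-labelled cells without niacin gave 8903 calls, and 5880 with only the compared groups.

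In no comparison with 3 pairs did the deviations of libraries with the same number correlate above 0.1 in every pair. The numbers were therefore not taken to pair the samples. All 3 correlations were positive in some comparisons, and the highest were those of unstimulated WT-labelled cells with and without niacin (0.29, 0.03 and 0.23). With the replicate number as a block, 110 of 111 stimulation calls of members and 2 of 2 label calls were kept. Groups of 2 or 3 libraries limit the precision, and Abca1, a gene of few counts, had among the widest intervals.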
